A study of Homo sapiens with 6 samples.

Results

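The integrated stress response core examined here is a set of 10 genes, ATF4 and genes known as its partners or targets in stressed cells. They were taken from the deposited table by gene symbol, and all 10 were found among its 28395 genes. RNA-seq had been performed on A375 cells, an established human melanoma line labelled wild type, in the presence of 0.01% olive oil (OLO) or 0.01% ozonated olive oil (OZO) for 6 h, with 3 libraries in each group. OLO is the precursor from which OZO is made, so both groups received oil, and every library came from the same line.

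The values below are the authors' mean log2 CPM (the reads of a gene scaled to the size of the library, on a log2 scale), taken over all 6 libraries of both groups together. A mean of this kind has no spread over libraries, and a gene that is high in one group and low in the other has a value in between. Single libraries were not analysed here. The table also carries the authors' own comparison of OZO with OLO, whose values were not used. For these reasons no difference between OZO and OLO is given for any of the 10 genes, and no test was run. What follows describes how much of each transcript the A375 cells held across the experiment, which genes of the pathway were read, and what the annotation says of them.

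When a cell is short of amino acids or haem, carries misfolded protein in the endoplasmic reticulum or senses viral RNA, one of a small family of kinases phosphorylates the translation factor eIF2. Protein synthesis then falls in general, while a few mRNAs with short open reading frames in their leaders are translated better, that of the transcription factor ATF4 among them. ATF4 pairs with other basic leucine zipper (bZIP) proteins and switches on genes for amino acid supply, for feedback on the response and, if the stress lasts, for cell death. Because much of this control acts on translation, the level of an mRNA does not give the level of its protein.

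Each mean could be turned back into reads. The lowest values of the table stepped in the way that no read, 1 read and a few reads would give. Of 12069 low values 12069 were on such a step, but 7012 of them are the lowest value itself, on it by definition. Only the rest could have missed a step. From the lowest value the library size came out at 18409902 counted fragments as a geometric mean, while that of any one library cannot be told from a mean. At this depth 21383 genes were read in 1 or more libraries, and 13773 averaged 10 reads or more. All 10 stress response genes had at least 10 reads, from 80.0 for CHAC1 to 8130 for ATF4, beside a median of 71.1 over the genes with a read. The melanoma label was looked at through marker genes. Of 8 melanocytic markers 7 had a read and 5 had a mean of at least 10 reads, with SOX10 at 919 and MITF at 499 reads. The pigment genes PMEL and DCT had under 10. TYR had none, which allows up to 3 reads over all 6 libraries together. All 4 markers of dedifferentiated melanoma had at least 10 reads, led by AXL with 4920. Of the markers of other cells, 2 of 4 keratinocyte genes (KRT10 and KRT14), 2 of 4 fibroblast genes (LUM and COL1A1) and the leukocyte gene CD14 had at least 10 reads, the highest being KRT10 with 469. The defining leukocyte genes PTPRC and CD3E had at most 1.07 reads. What part such markers play in the levels below was not tested.

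A binding element known as CARE, the C/EBP-ATF response element, is the site through which ATF4 and its partners act, and it was looked for in the 10 promoters, each 250 bases before to 50 bases after the RefSeq gene start in GRCh38.p14. The letters TGATGNAAN, on either strand, stood in 2 of the 10 promoters, those of ASNS and CHAC1. They stood in 3.67% of the 27305 RefSeq promoters, and in 2.23% of the 15367 promoters of genes with a read. The matches are shown with 10 bases on each side because they are the sequence that these target genes share with the known ATF4 site. They are written 5′ to 3′ on the strand of the gene, and the capitals mark the match.
ASNS: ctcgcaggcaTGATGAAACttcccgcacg
CHAC1: ctcccctgccGTTGCATCActcctgccag
The ASNS stretch lies at chr7:97872458-97872486 on the minus strand, with the match 68 to 60 bases before the gene start. The CHAC1 stretch lies at chr15:40953251-40953279 on the plus strand, with the match 210 to 202 bases before the gene start and its core reading on the opposite strand. Both stretches overlap an exon of some GENCODE 44 transcripts of the gene, 3 of 17 for ASNS and 1 of 3 for CHAC1. The letters TTGCATCA, which overlap the same CHAC1 match, stood in 1 of the 10 promoters and in 0.92% of all promoters. The ER stress response element, CCAAT and CCACG with 9 bases between them, stood in none of the 10 and in 0.08% of all promoters. These windows are short, and the letters may stand farther from a start or inside a gene. A match describes the sequence and does not show that a factor binds there.

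ATF4, the effector of the response, was the most abundant of the 10 transcripts. ATF4 (chromosome 22, 39519695 to 39522683, plus strand, hg38) had a mean of 8.79 log2 CPM, about 8130 reads per library. That placed it 321st of the 21383 genes with a read, above 98.5% of them. Divided by the 2613 bases of its merged exons, its level was 7.40 log2 CPM per kb, or 169 CPM per kb. This division allows for gene length only as far as the merged exons match the transcripts that were counted. The median of the genes with a read was 0.40 log2 CPM per kb. By mean level alone, the named genes closest to ATF4 were BPNT2, LAMB1 and DDX46, each at 8.78 log2 CPM. This likeness rests on 1 mean per gene, and no pattern over libraries could be compared.

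The bZIP partners of ATF4 among the 10 genes lay well below it. DDIT3 encodes CHOP, a bZIP protein known for its part in death after lasting stress of the endoplasmic reticulum. DDIT3 (chromosome 12, 57516588 to 57521737, minus strand) had 4.99 log2 CPM, about 584 reads, and its merged exons are the shortest of the 10 genes at 1307 bases. Per length it stood at 4.60 log2 CPM per kb, above 91.0% of the genes with a read and a length. CEBPG, which forms dimers with ATF4, had 5.91 log2 CPM and 3.89 per kb (chromosome 19, 33373685 to 33382686). ATF5, the close relative of ATF4, had 4.77 log2 CPM and 3.23 per kb (chromosome 19, 49928702 to 49933935). CEBPB, a C/EBP factor of many stress and inflammatory programmes, is a gene of 1 exon and had 4.09 log2 CPM and 3.21 per kb (chromosome 20, 50190830 to 50192668). ATF5 and CEBPB thus had close levels by this measure, and only counting error can be set against the difference of 0.02 on the log2 scale (95% interval −0.06 to 0.11). With the longest transcript in place of the merged exons ATF5 stood 0.55 above CEBPB.

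The exons of 4 of the 10 genes overlap those of another gene in GENCODE 44. The share of all genes with such an overlap was not computed, so this count is not read as a trait of the set. DDIT3 shares exonic bases with MARS1 and MBD6 on the opposite strand and with an unnamed protein-coding gene on its own. MARS1, which encodes a methionyl-tRNA synthetase, had a mean of 7.94 log2 CPM against 4.99 for DDIT3. ATF5 overlaps NUP62 on the opposite strand, which had 6.05 log2 CPM, and IL4I1 on that strand at −3.68. On its own strand ATF5 overlaps the microRNA gene MIR4751, which had no read, allowing up to 3 over all 6 libraries together. CEBPB overlaps the antisense RNA CEBPB-AS1, which had 0.73 log2 CPM. The libraries keep the strand, but whether strand was used in counting is not given in the sources used here, so the levels of DDIT3, ATF5 and CEBPB are uncertain in that respect. ASNS overlaps a long non-coding RNA on its own strand. The overlaps of ASNS, DDIT3 and ATF5 with a gene on the same strand could not be separated by strand in any case.

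Feedback genes of the response spanned a wide range. PPP1R15A encodes GADD34, the stress-induced subunit that brings protein phosphatase 1 to eIF2 and restores translation. PPP1R15A (chromosome 19, 48872212 to 48876059) had 7.88 log2 CPM, about 4350 reads, and 6.11 log2 CPM per kb, above 97.6% of the genes with a read and a length. TRIB3, a pseudokinase known to bind ATF4 and CHOP and to damp the response, had 5.55 log2 CPM, about 859 reads, and 3.83 per kb (chromosome 20, 362835 to 397559). SESN2, a leucine sensor that holds back mTORC1, had 4.56 log2 CPM, about 435 reads, and 2.77 per kb (chromosome 1, 28259518 to 28282491).

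The 2 enzymes of the set had very different levels. ASNS makes asparagine and is a classical target of ATF4 when amino acids are short. ASNS (chromosome 7, 97851677 to 97872542, minus strand) had 8.11 log2 CPM, about 5080 reads, and 5.82 log2 CPM per kb. CHAC1, which cleaves glutathione and is a known target of ATF4 and its partners, was the lowest of the 10. CHAC1 (chromosome 15, 40952962 to 40956512) had 2.13 log2 CPM, about 80.0 reads, and 1.09 log2 CPM per kb, above 56.0% of the genes with a read and a length. From ATF4 to CHAC1 the level per length differed 79.3-fold.

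**Figure D1:**
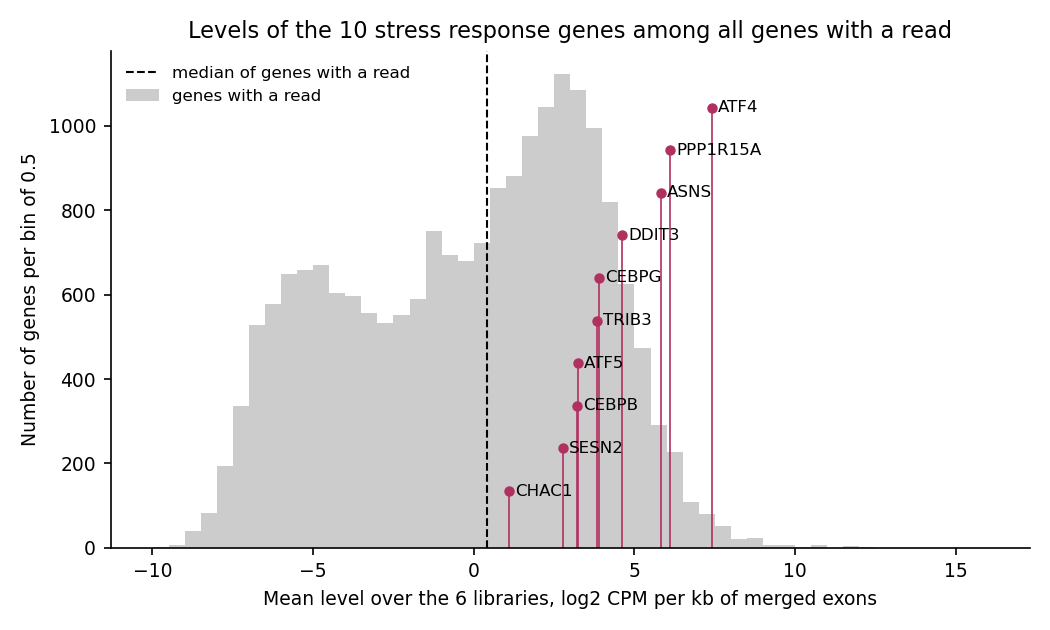
Distribution of mean levels over the 6 libraries (x axis, log2 CPM per kb of merged exons) for genes with a read (grey bars, number of genes per bin of 0.5), with the 10 stress response genes as red points on stems whose heights only separate the names. All 10 genes lie to the right of the dashed median at 0.40, CHAC1 nearest to it at 1.09 and ATF4 farthest at 7.40.

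Per length the order was ATF4, PPP1R15A, ASNS, DDIT3, CEBPG, TRIB3, ATF5, CEBPB, SESN2 and CHAC1. With merged exons as length, the largest steps between neighbours were the 3.20-fold step from SESN2 down to CHAC1 and the 2.45-fold step from ATF4 down to PPP1R15A. CEBPG and TRIB3 differed 1.04-fold, with a 95% counting interval of 0.01 to 0.11 on the log2 scale. Such intervals hold counting error only. The spread between libraries is not part of them, so no neighbouring pair is shown to differ beyond that spread. The order also depended on the length used. With the longest transcript in place of the merged exons, ASNS stood above PPP1R15A by 0.67 and TRIB3 stood above CEBPG by 0.35 on the log2 scale, and the other places were the same. The largest step was then that from PPP1R15A down to DDIT3, 1.29 on the log2 scale, followed by 1.25 from SESN2 to CHAC1, and ATF4 stood 0.92 above ASNS.

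Several of the 10 genes belong to families whose other members are not part of the classical response, and levels per length were set beside those of these paralogs. CHAC1 was the lower of its pair, at 1.09 log2 CPM per kb against 4.63 for CHAC2, the enzyme with the same reaction that is known as constitutive. CHAC2 was 11.6-fold higher on this scale. In the other families the genes of the set stood above the paralogs outside it per length. TRIB3 was 2.93-fold above TRIB1 and 3.12-fold above TRIB2. SESN2 was 2.69-fold above SESN1 and 1.83-fold above SESN3. ATF4 was 18.0-fold above ATF5, itself one of the 10 genes. By mean level alone, without length, SESN3 stood above SESN2, at 5.31 against 4.56 log2 CPM. PPP1R15B likewise stood above PPP1R15A, at 8.36 against 7.88. The other paralogs outside the set stood on the same side as per length.

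Per length PPP1R15A was 1.96-fold above PPP1R15B, the constitutive subunit of the same phosphatase, which had 5.13 log2 CPM per kb. That step shrank to 0.22 on the log2 scale with the longest transcripts as length. Among the C/EBP factors, CEBPB at 3.21 log2 CPM per kb was 23.1-fold above CEBPA and 12.0-fold above CEBPD, which had 18.7 and 17.3 reads. CEBPG, the other C/EBP gene of the set, was 1.60-fold above CEBPB. CEBPE had no read, which allows up to 3 reads over all 6 libraries together, and no fold is given against it.

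**Figure D2:**
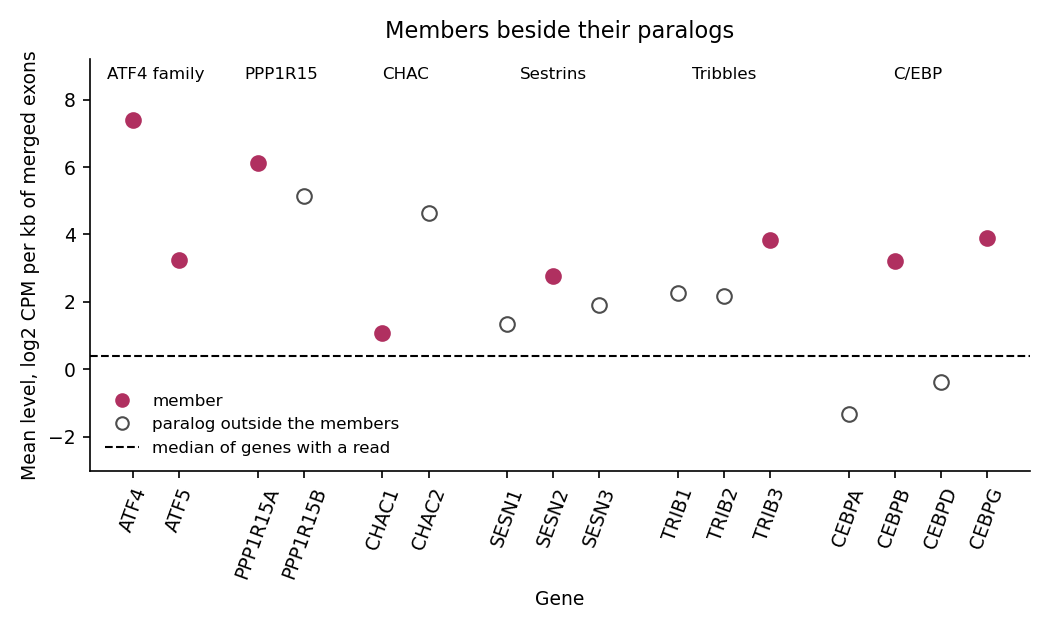
Mean level over the 6 libraries (y axis, log2 CPM per kb of merged exons) of the stress response genes (filled points) and of paralogs outside the set (open points), by family, with the median of genes with a read as a dashed line. CHAC2 sits far above CHAC1, at 4.63 against 1.09, while TRIB3 and SESN2 sit above their paralogs.

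The eIF2 kinases, which start the response, and the other genes listed with them were all read. Of these 8 genes, 8 had at least 10 reads. Their median was 3.46 log2 CPM per kb, beside 3.86 for the 10 stress response genes and 0.40 for all genes with a read. Among the 4 kinases, EIF2AK1 (HRI, which senses haem and relays mitochondrial stress) had 4.52 log2 CPM per kb, EIF2AK2 (PKR, a sensor of double-stranded RNA) 3.68 and EIF2AK4 (GCN2, a sensor of uncharged tRNA) 3.18. EIF2AK3 (PERK, the sensor in the endoplasmic reticulum) stood at 0.72, the lowest of the list on this scale. The order of the kinases depended on the length, and with the longest transcript EIF2AK3 had 2.85, EIF2AK4 4.29, EIF2AK2 3.80 and EIF2AK1 4.83. The 12 genes for eIF2, its exchange factor eIF2B and the eIF2 phosphatase had a higher median, 5.22, and all 12 had at least 10 reads.

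Other bZIP proteins with which ATF4, DDIT3 and the C/EBP factors may pair were uneven. Of 17 such genes 15 had a read and 14 had at least 10 reads, and 9 of the 15 stood above the median level per length of all genes with a read. FOSL1 led at 6.45 log2 CPM per kb, and ATF3, itself known as an ATF4 target, had 4.07. BATF and CEBPE had no read.

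The listed targets of ATF4 outside the 10 genes all had a read, and most had at least 10 reads. All 18 genes of amino acid supply had at least 10 reads, with a median of 4.99 log2 CPM per kb, above that of the 10 genes. PSAT1 of serine synthesis, at 7.60, and the glutamine transporter gene SLC38A2, at 7.21, were near ATF4 itself at 7.40, while CBS, at −1.68, and the glycine transporter gene SLC6A9, at 0.29, were the only members of that list under the median of all genes with a read, 0.40. Of 13 other stress outputs 10 had at least 10 reads. Their median was 2.16 over all 13 genes and 4.37 over the 10 with at least 10 reads. The secreted factors FGF21, GDF15 and INHBE had 0.246, 6.70 and 7.69 reads. These counts and medians describe the lists and were not tested.

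**Figure D3:**
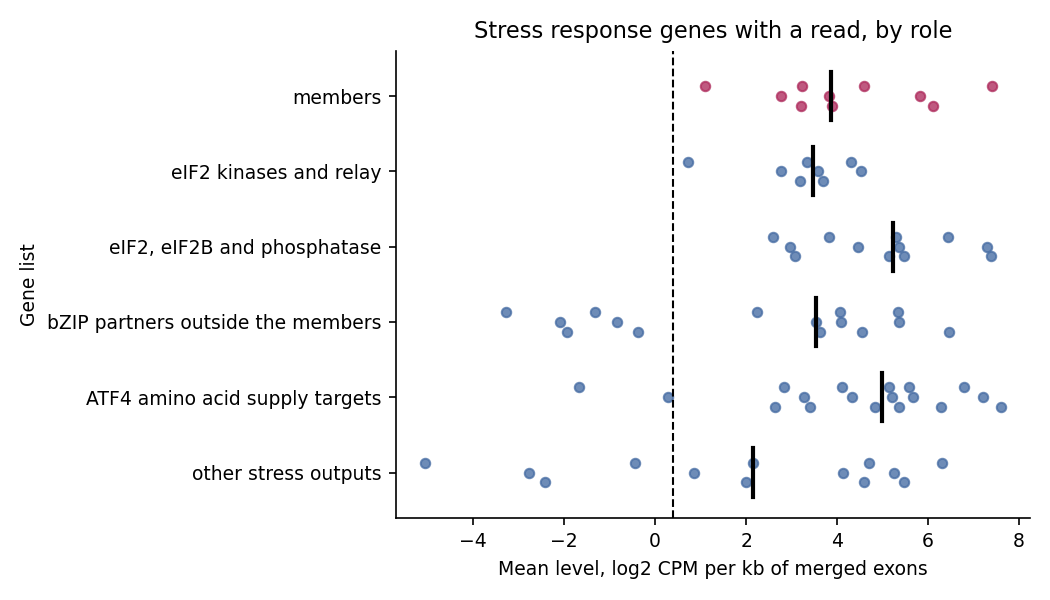
Mean level over the 6 libraries (x axis, log2 CPM per kb of merged exons) of each gene with a read, by gene list (rows; vertical spread within a row only separates points). Thick black bars are list medians and the dashed line is the median of all genes with a read, 0.40. The 10 stress response genes run from 1.09 to 7.40 around a median of 3.86, and the median of the amino acid supply genes lies to their right at 4.99.

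Since the response is known to work through upstream open reading frames, the leaders of the 10 canonical transcripts in GENCODE 44 were read for ATG triplets before the coding start. At least 1 was present in 7 of the 10, and 41.8% of 19313 canonical coding transcripts had one. A frame that starts upstream and runs past the coding start in another frame was present in 3 of the 10, in ATF4, DDIT3 and ATF5, and in 13.3% of all. ATF4 has a leader of 282 bases with 3 such ATGs. Their frames hold 1, 3 and 59 codons before the stop, and the third ends 83 bases past the coding start. ATF5 has a similar plan in a leader of 315 bases, with a frame of 3 codons followed by one of 59 codons that ends 56 bases past the coding start.

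DDIT3 has 3 upstream ATGs in 177 bases. The first 2 share a stop and hold 34 and 31 codons, and the third opens a frame of 73 codons that ends 190 bases past the coding start. PPP1R15A carries 2 frames of 22 and 26 codons, both ending before the coding start, and TRIB3 2 of 77 and 14 codons in the longest leader of the set, 410 bases. SESN2 has 1 frame of 19 codons and CEBPG 1 of a single codon. ASNS, CEBPB and CHAC1 have no upstream ATG in these transcripts, and the CHAC1 leader is the shortest at 113 bases. Genes with and without upstream frames were mixed along the order of levels. ATF4 and PPP1R15A, with frames, were the first and the second, ASNS, without, the third, and CHAC1, without, the last. These frames were read from the annotation, and no translation was measured here.

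**Figure D4:**
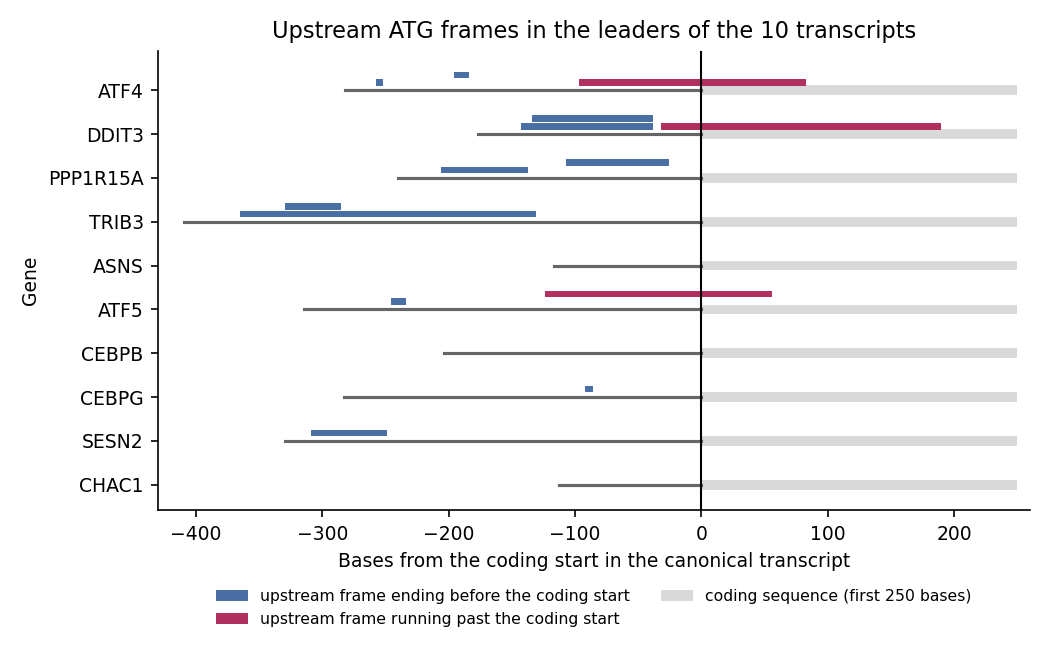
Leaders of the 10 canonical transcripts drawn to scale (x axis, bases from the coding start; dark lines, leader; grey bars, the first 250 bases of the coding sequence), with upstream ATG frames that end before the coding start in blue and those that run past it in red. Red frames appear for ATF4, DDIT3 and ATF5, and ASNS, CEBPB and CHAC1 have no frame.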

How the data were processed

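Strand-specific libraries were made from A375 cells treated with OLO or OZO (3 libraries each, grouped by the sample titles). According to the methods and the submitters' processing notes, the authors aligned reads to hg38 with HISAT2 2.1.0, counted them with featureCounts 2.1.1 and ran limma-voom 3.58.1. How libraries were scaled and whether strand was used are not given in the sources used here. Genes with low counts were not filtered out, since 7012 of the 28395 genes had the lowest value, no read in any library. The deposited log2 values used here are the authors' mean log2 CPM over all 6 libraries, with 0.5 added to every count. The remaining 5 value columns hold the authors' own comparison (fold change, moderated t, p-value, adjusted p-value and log odds) and were not used, and 0 columns hold values of 1 library.

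Reads were recovered from the lowest value, which is no read in any library, with a tolerance of 0.01 for a whole number over values up to a product of 10000. The mean reads are geometric means. Intervals (95%) and standard errors use a Poisson approximation to the reads of the 6 libraries and hold counting error only. They take the reads of a gene as equal in every library. Where the reads differ between libraries, the counting error is larger than the one given. The limit of 3 counts, over all 6 libraries together, for a gene with no read also uses a Poisson approximation and holds counting error only. Lengths and coordinates are from GENCODE 44 (hg38), matched by Ensembl identifier for 25420 of 25525 genes. Merged exons were the main length, and 19738 genes with a read had one. Promoters are from RefSeq (GRCh38.p14), and all 10 genes matched. Python 3.11.15 with pandas 2.3.3 was used. The read recovery was run on simulated data built with the formula that it inverts. That run checks the arithmetic only and not how the deposited means were made. The members, lists, motifs and the rule for named genes (the 10 members, listed genes where their role or paralog is described, and the 3 genes nearest to ATF4 in mean level) were chosen with earlier results of these data known. The overlap with other genes and the leader frames were added after the levels had been seen. Protein features were not computed, since no protein sequences were used here. One listed marker gene is not reported here.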

Additional observations from a re-analysis of the deposited data

How the results depend on the processing

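The median percentile of the 10 genes among genes with a read, 75.3, became 81.4 among all genes and 61.7 among genes that averaged 10 reads or more, since these hold more and fewer weakly read genes. Among genes that averaged 10 reads or more, CHAC1 stood at 23.9 and CEBPB at 44.8, below the middle by mean level. The lowest of the other genes was SESN2 at 51.3. The median level per length, 3.86 log2 CPM per kb, became 4.14 with the longest transcript as length and was 3.86 without the 0.5 added reads. With the longest transcript 8 of the 10 single levels rose, since that length is the shorter one. Those of CEBPB and SESN2 stayed, since both lengths are equal there. Such shifts come from the lengths alone, so counting error is no measure of them. Of 6 list medians 5 moved by no more than 0.10 on the log2 scale with members of at least 10 reads only, and that of the other stress outputs went from 5.27 to 6.17 log2 CPM, and from 2.16 to 4.37 per kb. No paired analysis was possible because the values used are 1 mean over all libraries. For the same reason another normalization, DESeq2, the replicate block and leaving out each replicate were not run. A variant without a filter on low counts did not apply, since the deposited values already hold genes with no read. Depth limits mainly CHAC1, whose 80.0 mean reads give a counting standard error of 0.0659 on the log2 scale, against 0.00653 for ATF4.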
